A study of Mus musculus with 6 samples.

Results

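The genes described here are 32 genes of the G2/M transition and of mitosis, chosen by name for their known roles, with no cut on measured values. All 32 were found among the 55487 gene identifiers of the count tables and all 32 passed the filter on low counts, so they are 32 of the 18237 genes tested. RNA was sequenced from cerebella of male mice at postnatal day 14 in 6 libraries, 3 of them from mice homozygous for the Galnt17 (formerly Wbscr17) knockout allele Galnt17tm1.1(KOMP)Vlcg (KO) and 3 from B6C3 wild types (WT). Each library title carries a number of its own, and the labels do not say whether any library pooled animals, so p-values measure the spread between these libraries. B6C3 animals are hybrids of C57BL/6J and C3H/He. The allele was brought in by fertilising C57BL/6J females and was then crossed to B6C3 F1 animals, because homozygotes were not born alive on C57BL/6, per the labels. The KO and WT mice can therefore differ in their share of C3H/He genome as well as at Galnt17, and the sources used here do not say whether they were littermates.

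Cells that leave G2 switch on a set of genes whose products condense the chromosomes, build the spindle, hold anaphase back until every kinetochore is attached and then split the cell. Most of these transcripts are made in G2 and M and are lost when a cell leaves the cycle, so in a tissue they mark dividing cells. In the postnatal mouse cerebellum the main dividing cells are granule cell precursors of the external granular layer, which divide under Sonic hedgehog from Purkinje cells, and by the end of the second postnatal week that layer is thinning. Oligodendrocyte precursors, interneuron progenitors and some glia divide there too. In bulk tissue, fewer cells of a type and less RNA per cell cannot be told apart.

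The targeted gene was low in every KO library, with 72, 80 and 63 Galnt17 counts in KO and 1119, 729 and 963 counts in WT (2.99 ± 0.526 against 45.3 ± 2.21 CPM, SD, n = 3 each). CPM are counts scaled to a common library size with TMM factors. Reads counted in genes totalled 17111611 to 29840046 per library, and the 32 genes had between 46 and 1128 counts each. Defining cerebellar markers were present, with Gabra6 of granule cells at 628 ± 33.7 CPM in KO and 617 ± 103 CPM in WT. Reads were counted without regard to strand, and 8 of the 32 genes share exon bases with another annotated gene, 6 of them with a coding gene on the opposite strand (Ccna2, Cdc20, Kif20a, Nusap1, Prc1 and Ube2c), so the counts of these genes are uncertain to that extent. The share of unmapped reads was 13.8% to 17.2% in KO and 6.52% to 10.03% in WT, so it too separated the groups, and its part in the results was not tested. Over all 6 libraries 159 genes were called lower and 143 higher. Without WT replicate 1 there were 962 lower and 959 higher. The levels of that library leaned most on GC content (Spearman correlation of -0.22 across genes, against -0.07 to 0.14 in the other libraries), and with a GC correction that kept all 6 libraries 236 genes were called lower and 125 higher, with 0 of the 32 genes among them.

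Many promoters of this gene group share sequence elements that the choice of genes did not use. The cell cycle genes homology region, or CHR, is a short element bound by the MuvB core, which acts with B-MYB and FOXM1 in dividing cells and within the repressive DREAM complex in resting cells, and the CCAAT box next to it is bound by NF-Y. RefSeq promoters (GRCm38.p6, 250 bases before to 50 after each start, 300 bases) were available for 28 of the 32 genes, as 30 windows, since Ect2 and Prc1 have a pair of overlapping windows each. The letters searched on both strands were TTTGAA or TTCGAA for the CHR and CCAAT for the CCAAT box. A CHR match lay in 24 of the 30 windows (80%), against 19.2% of all 32851 windows in the table, and a CCAAT match in 23 (76.7%), against 37.4%. Both were found in 21 windows (70%), against 7.52% of all. The windows of 5 genes follow, 5′ to 3′, with the matches in capitals (the reverse complements appear as TTCAAA and ATTGG). Cdk1 and Ccnb2 are shown because they drive entry into mitosis, Top2a because it holds the most CHR matches of the set, and Ttk and Nuf2 because they had the smallest p of the 32 genes while Ttk holds both elements and Nuf2 neither.
Cdk1, chr10:69352863-69353162, minus strand: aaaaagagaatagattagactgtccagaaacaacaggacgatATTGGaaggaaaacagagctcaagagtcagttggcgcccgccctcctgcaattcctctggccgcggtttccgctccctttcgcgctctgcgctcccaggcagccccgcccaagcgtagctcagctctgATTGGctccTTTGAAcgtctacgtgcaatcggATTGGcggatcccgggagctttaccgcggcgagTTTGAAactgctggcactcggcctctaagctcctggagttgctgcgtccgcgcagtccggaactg
Ccnb2, chr9:70421505-70421804, minus strand: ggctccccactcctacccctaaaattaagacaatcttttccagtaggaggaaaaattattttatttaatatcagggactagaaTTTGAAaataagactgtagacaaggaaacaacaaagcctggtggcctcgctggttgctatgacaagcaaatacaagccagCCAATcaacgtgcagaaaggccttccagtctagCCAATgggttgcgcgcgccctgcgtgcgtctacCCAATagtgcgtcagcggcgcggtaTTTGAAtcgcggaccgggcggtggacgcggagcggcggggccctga
Top2a, chr11:99024140-99024439, minus strand: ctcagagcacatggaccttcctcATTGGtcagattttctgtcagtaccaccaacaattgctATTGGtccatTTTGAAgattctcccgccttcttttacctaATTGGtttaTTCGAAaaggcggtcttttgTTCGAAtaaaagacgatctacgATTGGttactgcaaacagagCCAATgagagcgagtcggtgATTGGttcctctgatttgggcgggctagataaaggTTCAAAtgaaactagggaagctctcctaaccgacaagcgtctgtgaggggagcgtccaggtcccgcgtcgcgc
Ttk, chr9:83834439-83834738, plus strand: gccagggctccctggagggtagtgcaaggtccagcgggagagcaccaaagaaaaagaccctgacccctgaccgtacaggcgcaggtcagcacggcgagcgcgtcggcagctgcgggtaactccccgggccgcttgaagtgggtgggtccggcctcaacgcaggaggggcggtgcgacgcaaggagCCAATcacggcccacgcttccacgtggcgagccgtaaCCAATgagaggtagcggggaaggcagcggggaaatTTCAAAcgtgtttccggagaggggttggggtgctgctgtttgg
Nuf2, chr1:169531415-169531714, minus strand: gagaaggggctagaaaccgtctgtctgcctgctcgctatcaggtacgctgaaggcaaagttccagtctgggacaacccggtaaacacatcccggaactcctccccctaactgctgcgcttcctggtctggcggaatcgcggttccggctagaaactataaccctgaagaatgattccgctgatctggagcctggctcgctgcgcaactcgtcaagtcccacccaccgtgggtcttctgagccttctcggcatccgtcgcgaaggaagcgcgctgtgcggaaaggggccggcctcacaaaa
Cdk1 holds CHR matches starting at -15 and -71 from the gene start, Ccnb2 at 5 and -167, and Ttk at 8. These are letter matches and not shown to be bound. The 19 genes with both elements had a median log2 fold change (KO over WT) of -0.25, with a range of -0.57 to 0.23. The 9 genes with a promoter that lacked at least 1 of them had a median of -0.36, with a range of -0.51 to 0.10. Of these 9, Birc5, Mad2l1, Nuf2 and Nusap1 held neither, and the difference between the medians was not tested. The window of Kif2c, also among the 9, spans 117178723 to 117179022 on chromosome 4 (minus strand). It lies inside the annotated gene, whose 5′ end is at 117182639. The Kif2c CHR match, counted among the 24, may therefore lie outside the main promoter.

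The comparison of KO with WT asks how the cerebellar transcriptome differed in mice without Galnt17. Of the 32 genes 0 passed an adjusted p of 0.05 in edgeR (quasi-likelihood F test, Benjamini-Hochberg over all genes tested), in a comparison where 0.872% of all genes were called lower and 0.784% higher in KO. At an unadjusted p under 0.05, 10 of the 32 were lower and 0 higher, against 8.99% of all genes lower and 8.57% higher. By other tools the number lower at that unadjusted p was 12 (DESeq2, against 6.86% of all genes), 11 (the exact test of edgeR, against 8.42%) and 10 (limma-voom, against 8.42%), each with 0 adjusted calls. The log2 fold change was negative for 30 of the 32, as it was for 51.5% of all genes tested, and the median was -0.29 over the 32 and -0.01 over all genes tested. Every KO value lay below every WT value in 6 of the 32, against 12.2% of all genes, and above in 1, against 11.5%. The group values of the other 25 overlapped.

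**Figure D1:**
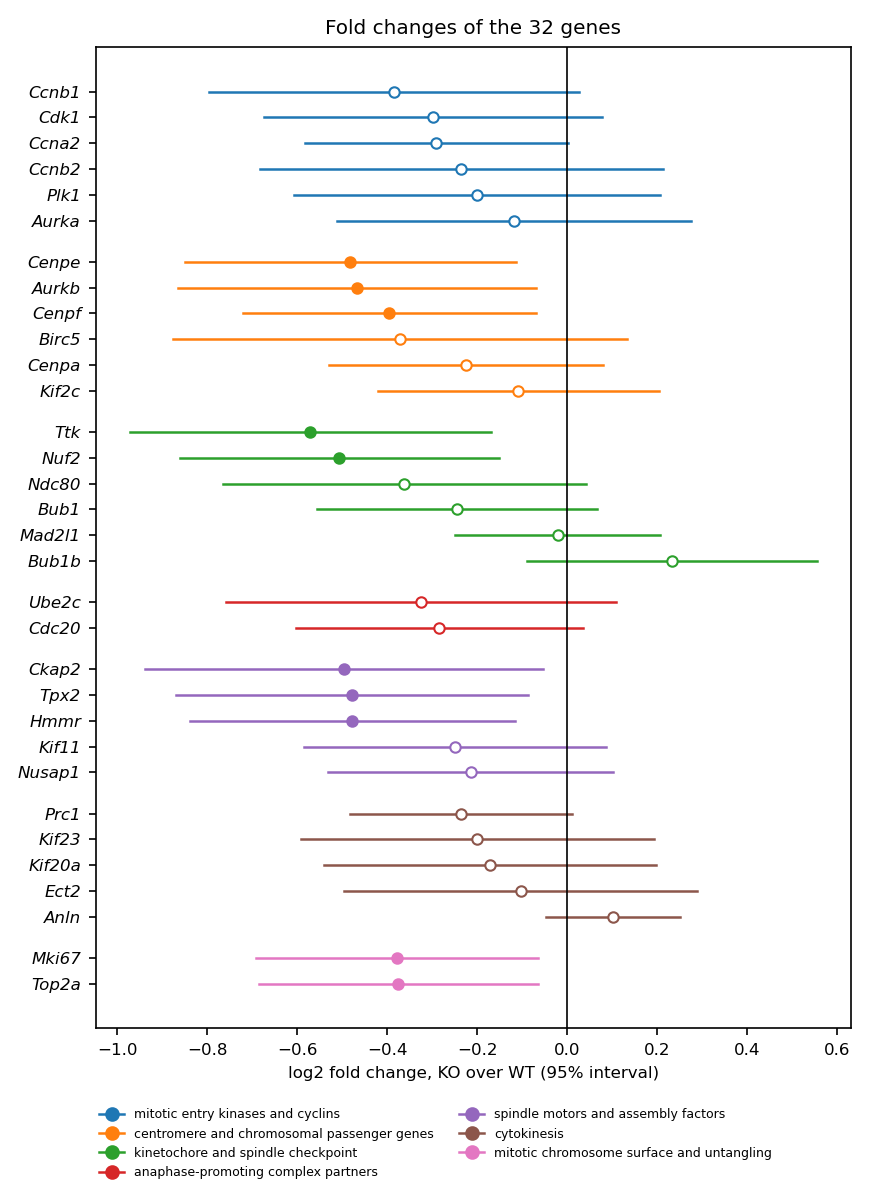
Log2 fold change of each of the 32 genes (horizontal axis, KO over WT) with its 95% interval from the edgeR fit (n = 3 libraries a group), grouped and coloured by role. Filled points have an unadjusted p under 0.05 and open points do not. All but Bub1b and Anln lie left of 0, and 10 points are filled.

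The same library was lowest, and the same one highest, for most of the 32 genes, while KO replicate 1 took no fixed place beside WT replicates 1 and 3. KO replicate 3 was the lowest of the 6 libraries for 27 genes and WT replicate 2 the highest for 27 genes. KO replicate 1 was below WT replicate 1 for 14 of the 32 genes and below WT replicate 3 for 18, whereas KO replicate 3 was below WT replicates 1, 2 and 3 for 29, 31 and 29. The mean of log2(CPM + 1) over the 32 genes was 3.35, 3.24 and 2.99 in the KO libraries and 3.34, 3.63 and 3.38 in the WT libraries, in replicate order. KO replicate 1 thus lay within the WT range, and only KO replicates 2 and 3 lay below it. The group means of that score were 3.19 ± 0.180 in KO and 3.45 ± 0.155 in WT (SD, n = 3 each), a difference of -0.26. Summed, the 32 genes took 361, 327 and 274 CPM in the KO libraries and 350.1, 438 and 376 CPM in the WT libraries. The spread within a group was described by each gene's SD, where the SD of log2(CPM + 1) had a median of 0.20 in KO and 0.21 in WT, against 0.07 in KO and 0.12 in WT over all genes tested.

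**Figure D2:**
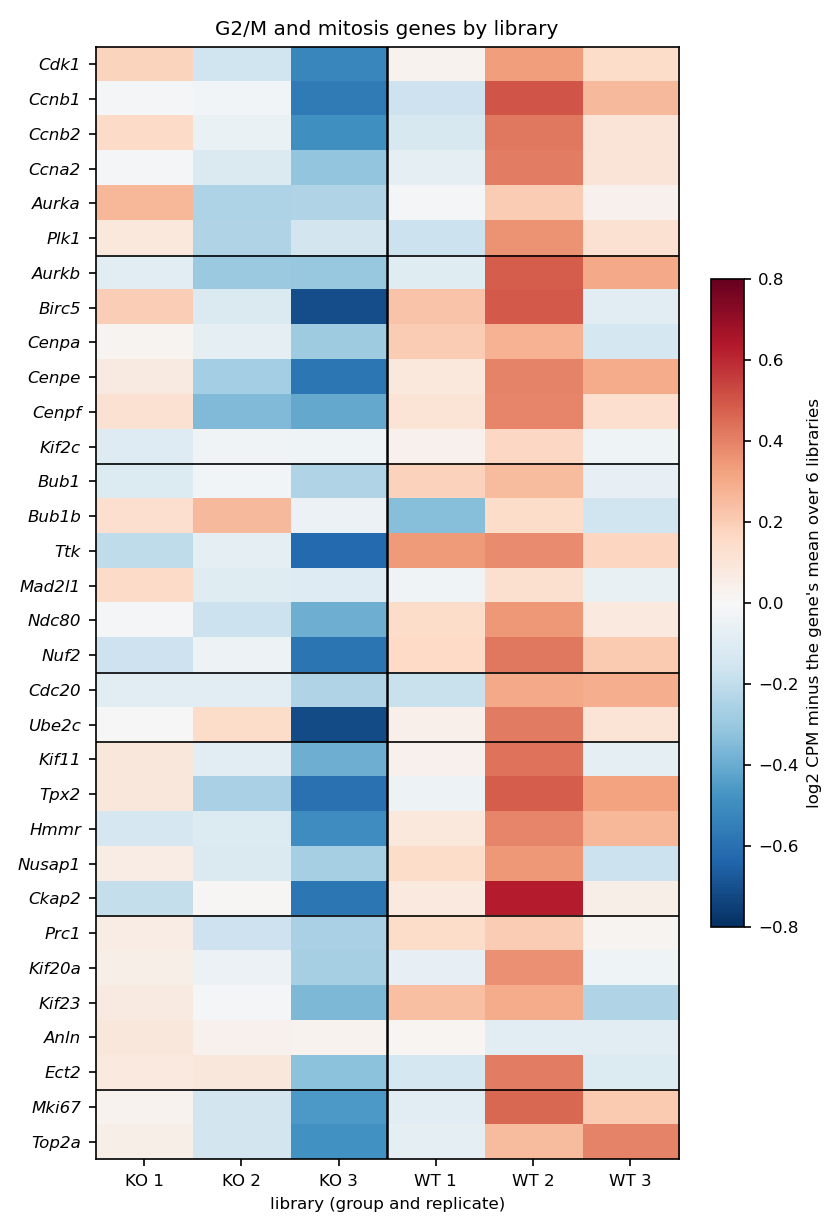
Log2 CPM of each of the 32 genes in each library, minus that gene's mean over the 6 libraries (colour scale), with KO libraries left of the vertical line and horizontal lines between roles. KO 3 is the lowest library for 27 genes and WT 2 the highest for 27, and KO 1 resembles WT 1 in level.

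The size of the difference depended on single libraries. Without KO replicate 3 the median log2 fold change of the 32 genes was -0.18, with 2 lower at that unadjusted p (under 0.05), against 5.7% of all genes. Without WT replicate 2 the median was -0.20, with 2 lower (7.04% of all genes) and 1 higher (7.56% of all genes) at that p. Without WT replicate 1 the median was -0.36 and 5 of the 32 were called lower at an adjusted p of 0.05, namely Mki67, Aurkb, Top2a, Cdc20 and Tpx2, in a fit that called 5.24% of all genes lower. With no filter on low counts 7 were called lower, in a fit that called 2.45% of all genes lower, and at an unadjusted p under 0.05 there were 17 lower, against 6.8% of all genes. The 7 genes called lower were Mki67, Top2a, Tpx2, Cenpf, Cenpe, Nuf2 and Ccnb1. Their log2 fold changes were -0.51 to -0.38, close to those of the filtered fit, and their edgeR adjusted p values were 9.36e-05 to 0.0484. The SE of Mki67 was 0.08 with no filter and 0.14 in the filtered fit, where its edgeR adjusted p was 0.207. That of Top2a was likewise 0.08 and 0.14, and that of Nuf2 was 0.16 in both. For Mki67 and Top2a the smaller p thus came with a smaller SE and not with a larger fold change. For Nuf2 it came with neither, as its unadjusted edgeR p was 0.0016 with no filter and 0.0095 in the filtered fit. Why p was smaller there at the same SE was not tested.

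**Figure D3:**
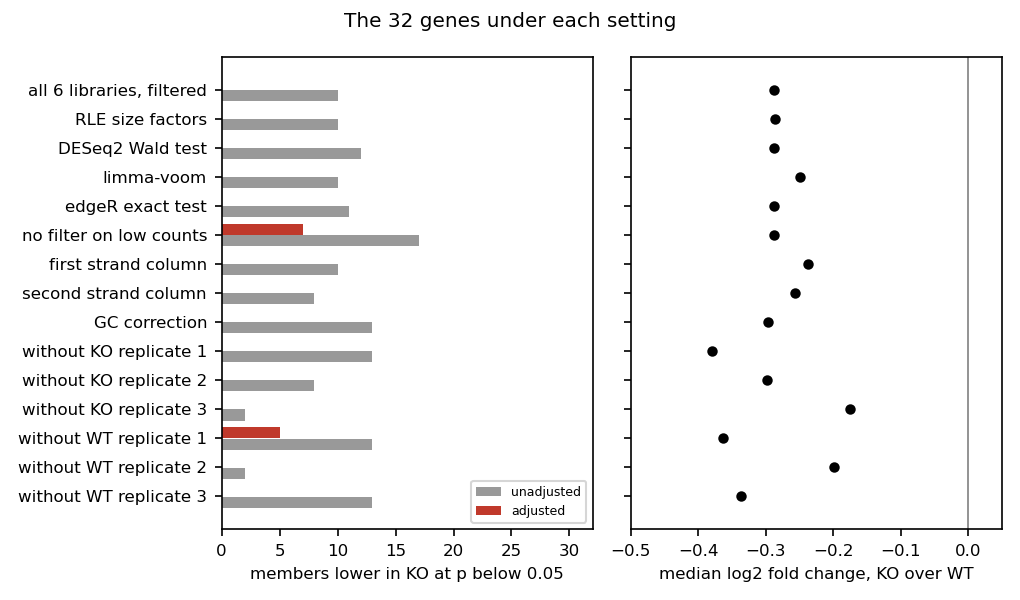
Number of the 32 genes lower in KO at an unadjusted (grey) or adjusted (red) p under 0.05 (left) and their median log2 fold change, KO over WT (right), under each setting. The median stays between -0.38 and -0.18, and red bars appear only with no filter on low counts (7 genes) and without WT replicate 1 (5 genes).

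Mki67 and Top2a were among the best counted of the 32 genes, with 502 to 1128 counts per library. Mki67 (chromosome 7, 135689784 to 135716361, minus strand, GRCm38) encodes Ki-67, which coats mitotic chromosomes and keeps them apart. Its level was 37.8, 33.5 and 27.0 CPM in KO replicates 1 to 3 and 35.0, 50.9 and 42.9 CPM in WT replicates 1 to 3. KO replicates 2 and 3 were below every WT library, and KO replicate 1 lay between WT replicates 1 and 3. The means were 32.7 ± 5.46 CPM in KO and 42.9 ± 7.94 CPM in WT, with a log2 fold change of -0.38 (SE 0.14, 95% interval -0.69 to -0.06, edgeR adjusted p = 0.207). Top2a (chromosome 11, 98992943 to 99024189, minus strand), the topoisomerase that untangles sister chromatids, was at 36.0, 31.4 and 24.9 CPM in KO and 33.2, 41.5 and 45.9 CPM in WT. Its groups overlapped in the same way, through KO replicate 1 and WT replicate 1, and its log2 fold change was -0.38 (SE 0.14, edgeR adjusted p = 0.206). Both genes passed in edgeR without WT replicate 1 (adjusted p = 0.0285 for Mki67 and 0.0305 for Top2a).

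**Figure D4:**
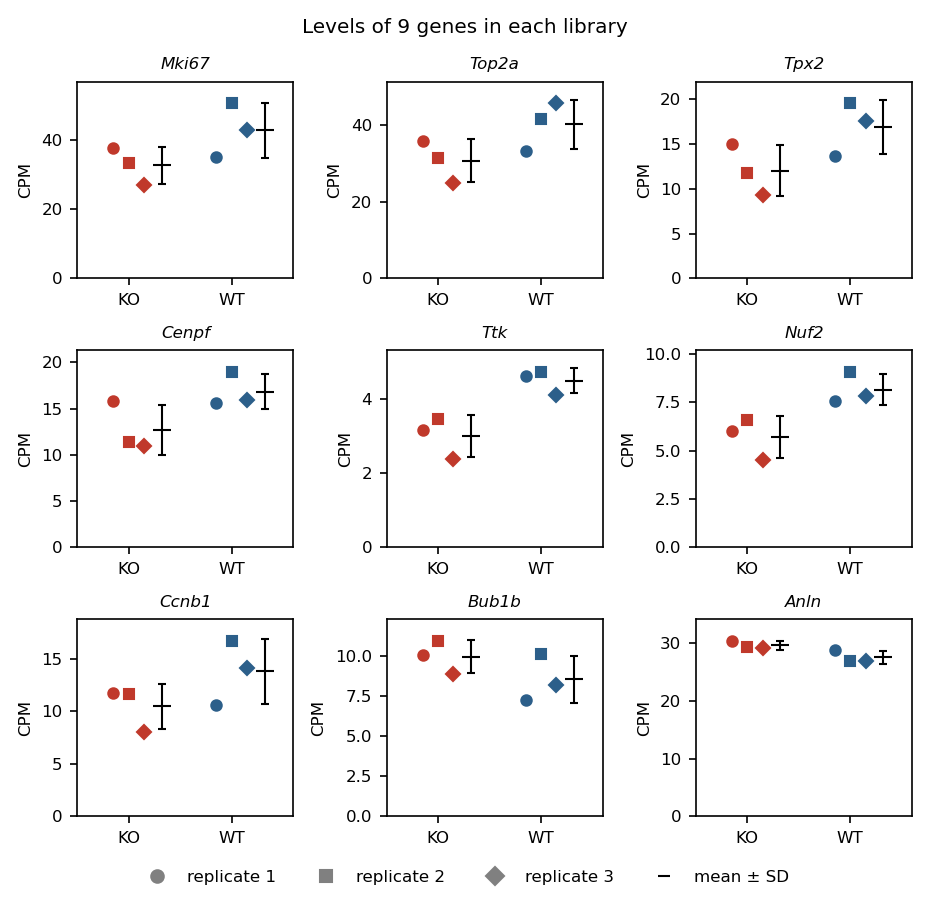
CPM of 9 of the 32 genes in each library, KO left and WT right in each panel, with marker shapes for replicates 1 to 3 and the group mean ± SD in black. Ttk and Nuf2 are the panels with KO wholly below WT, Anln the panel with KO wholly above WT, and in the others the groups overlap.

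Genes for entry into mitosis held 0 members at an unadjusted p under 0.05, and the median log2 fold change of these 6 genes was -0.26. Ccna2, whose cyclin A2 pairs with CDK kinases from S phase into G2, was at 15.3, 14.2 and 12.4 CPM in KO and 14.7, 20.4 and 16.5 CPM in WT. KO replicate 1 was above WT replicate 1, and the log2 fold change was -0.29 (SE 0.13, 95% interval -0.58 to 0.00, edgeR adjusted p = 0.286). Ccnb1, the cyclin B1 partner of CDK1, averaged 10.5 ± 2.13 CPM in KO and 13.8 ± 3.09 CPM in WT, with a log2 fold change of -0.39 (SE 0.19). Cdk1 itself averaged 8.33 ± 1.99 CPM in KO and 10.4 ± 1.11 CPM in WT. The second B-type cyclin, Ccnb2, averaged 4.68 ± 1.02 CPM in KO and 5.58 ± 1.09 CPM in WT. For the kinase genes Aurka, which acts at spindle poles, and Plk1, which acts from entry to cytokinesis, the log2 fold changes were -0.12 and -0.20. Both were positive when only the reads of the second strand column were counted (0.024 for Aurka and 0.092 for Plk1). The range over these 6 genes was -0.39 to -0.12, with adjusted p values of 0.286 to 0.765. The annotation holds a processed copy of Ccnb1 with 2 to 9 counts per library and another of Ccnb2 with 129 to 251 counts, so reads shared with the Ccnb2 copy make that gene's level uncertain.

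Among the centromere and chromosomal passenger genes the median log2 fold change was -0.38. At an unadjusted p under 0.05, 3 of 6 were lower, against 8.99% of all genes. Aurkb is the kinase of the chromosomal passenger complex, which corrects faulty spindle attachments. It was at 4.32, 3.74 and 3.72 CPM in KO and 4.31, 6.45 and 5.69 CPM in WT. KO replicate 1 was just above WT replicate 1, and the other values did not meet. Its log2 fold change was -0.47 (SE 0.18, 95% interval -0.87 to -0.07, edgeR adjusted p = 0.218). Birc5, which encodes survivin of the same complex, averaged 4.71 ± 1.41 CPM in KO and 6.17 ± 1.22 CPM in WT. Cenpe, a kinesin that carries chromosomes to the spindle equator, was at 9.05, 7.13 and 5.76 CPM in KO and 9.11, 11.3 and 10.5 CPM in WT. Each KO value was below each WT value, though KO replicate 1 and WT replicate 1 were close, and the log2 fold change was -0.48 (SE 0.17, edgeR adjusted p = 0.175). Cenpf, a large kinetochore protein, was at 15.8, 11.3 and 10.9 CPM in KO and 15.6, 19.0 and 15.9 CPM in WT. KO replicate 1 was just above WT replicate 1, and the log2 fold change was -0.40 (SE 0.15, edgeR adjusted p = 0.205). The centromeric histone gene Cenpa and the microtubule depolymerase gene Kif2c had log2 fold changes of -0.22 and -0.11. Kif2c had a narrow spread, with 4.65 ± 0.134 CPM in KO and 5.01 ± 0.349 CPM in WT, and the 95% interval of its log2 fold change, -0.42 to 0.20, includes 0.

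The kinetochore and checkpoint genes had the widest range of fold changes of the 7 roles. Ttk (chromosome 9, 83834689 to 83872389, plus strand) encodes MPS1, the kinase that starts the spindle checkpoint, and had the most negative fold change of the 32 genes. It was at 3.18, 3.48 and 2.38 CPM in KO and 4.64, 4.75 and 4.13 CPM in WT, on 48 to 112 counts per library. The groups did not overlap, and the log2 fold change was -0.57 (SE 0.18, 95% interval -0.97 to -0.17, edgeR adjusted p = 0.145). Nuf2 (chromosome 1, 169497934 to 169531464, minus strand), a subunit of the NDC80 complex that grips microtubules, was at 6.03, 6.58 and 4.52 CPM in KO and 7.58, 9.09 and 7.83 CPM in WT. Here too each KO value was below each WT value, with a log2 fold change of -0.51 (SE 0.16, edgeR adjusted p = 0.143). Its partner Ndc80, at 2.64 ± 0.350 CPM in KO and 3.43 ± 0.342 CPM in WT, had groups that did not overlap and a log2 fold change of -0.36 (SE 0.18, edgeR adjusted p = 0.332).

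The other 3 checkpoint genes lay nearer to 0 or above it. Mad2l1, which encodes the MAD2 inhibitor of anaphase, was at 17.3, 14.6 and 14.5 CPM in KO and 15.3, 17.0 and 14.9 CPM in WT. The values interleaved, and the log2 fold change was -0.02 (SE 0.10, 95% interval -0.25 to 0.21, edgeR adjusted p = 0.936). Bub1, a checkpoint kinase, averaged 5.71 ± 0.422 CPM in KO and 6.79 ± 0.763 CPM in WT. Bub1b (chromosome 2, 118598211 to 118641591, plus strand), which encodes the BUBR1 subunit of the mitotic checkpoint complex, was on the opposite side of 0. It was at 10.1, 11.0 and 8.89 CPM in KO and 7.25, 10.1 and 8.21 CPM in WT, with overlapping groups and a log2 fold change of 0.23 (SE 0.15, 95% interval -0.09 to 0.55, edgeR adjusted p = 0.429). Its value stayed positive whichever library was left out (0.13 to 0.37), while that of Ttk ran from -0.68 to -0.44.

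The partners of the anaphase-promoting complex gave intermediate values. Ube2c, the ubiquitin-conjugating enzyme that works with the complex, was at 10.8, 11.9 and 6.55 CPM in KO and 11.1, 14.3 and 11.6 CPM in WT. KO replicate 3 stood well below the other KO libraries, and the log2 fold change was -0.32 (SE 0.20, 95% interval -0.76 to 0.11, edgeR adjusted p = 0.417). Cdc20, the activator that the checkpoint holds back, averaged 8.70 ± 0.523 CPM in KO and 10.7 ± 1.91 CPM in WT, with a log2 fold change of -0.28 (SE 0.14). Without WT replicate 1, the lowest WT library for this gene, the value was -0.43 and passed in edgeR (adjusted p = 0.0338). Scaled to exon length these 2 genes had the highest levels of the group. That length joins all annotated exons of a gene, with 8390 bases for Mad2l1, 5860 for Cenpa and 1868 for Cdc20. It can exceed the length of the transcript present, so this ranking depends on the annotation. Over all 6 libraries Cdc20 was at 5.18 RPKM (CPM per kilobase of exon) and Ube2c at 4.24 RPKM, while the lowest, Ndc80, was at 0.468 RPKM.

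Spindle motors and assembly factors had the most negative median of the 7 roles, -0.48 over 5 genes. At an unadjusted p under 0.05, 3 of the 5 were lower, against 8.99% of all genes. Tpx2, which activates Aurora A and seeds microtubules around chromosomes, was at 14.9, 11.7 and 9.29 CPM in KO and 13.6, 19.6 and 17.5 CPM in WT. KO replicate 1 was above WT replicate 1, and the log2 fold change was -0.48 (SE 0.18, edgeR adjusted p = 0.202). Hmmr, a microtubule-binding partner of TPX2, was at 4.52, 4.60 and 3.53 CPM in KO and 5.26, 6.51 and 5.98 CPM in WT, without overlap (log2 fold change -0.48, SE 0.16, edgeR adjusted p = 0.173). Ckap2, a spindle microtubule protein, was at 5.33, 6.10 and 4.07 CPM in KO and 6.42, 9.39 and 6.27 CPM in WT, again without overlap (log2 fold change -0.50, SE 0.20, edgeR adjusted p = 0.238). Kif11, the motor that pushes the spindle poles apart, had its highest KO value of 16.9 CPM in replicate 1 and its lowest of 12.2 CPM in replicate 3, with a mean of 14.7 ± 2.39 CPM, against 16.3, 21.5 and 15.1 CPM in WT, with a mean of 17.6 ± 3.39 CPM. Its groups overlapped, and its log2 fold change was -0.25 (SE 0.15, 95% interval -0.58 to 0.09, edgeR adjusted p = 0.420). Nusap1, which binds spindle microtubules near chromosomes, averaged 11.1 ± 1.27 CPM in KO and 13.01 ± 2.31 CPM in WT.

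Cytokinesis genes had the least negative median, -0.17 over 5 genes, with 0 at an unadjusted p under 0.05. Anln (chromosome 9, 22332012 to 22389188, minus strand) encodes anillin, which ties the contractile ring to the membrane, and is also known from myelinating oligodendrocytes, where it belongs to a septin scaffold of mature myelin. It was at 30.5, 29.3 and 29.1 CPM in KO and 28.9, 27.0 and 27.0 CPM in WT, so every KO library was above every WT library. The log2 fold change was 0.10 (SE 0.07, 95% interval -0.05 to 0.25, edgeR adjusted p = 0.460). Markers of mature oligodendrocytes, a list of 6 genes added after the data were seen, had positive log2 fold changes in 6 of 6 (median 0.17), with 0 passing in edgeR. At an unadjusted p under 0.05, where 8.57% of all genes were higher, 4 of these markers were higher. Their summed level was 13379 to 14016 CPM in KO and 12173 to 12296 CPM in WT. Mog, which had the smallest adjusted p of the 6, was at 191 ± 6.14 CPM in KO and 165 ± 2.55 CPM in WT (edgeR adjusted p = 0.0731). The largest edgeR adjusted p of the 6 was 0.690. The part of myelin in the level of Anln was not tested. Prc1, which bundles microtubules of the midzone, averaged 11.9 ± 1.36 CPM in KO and 14.0 ± 0.900 CPM in WT, with a log2 fold change of -0.24 (SE 0.11). The kinesin genes Kif20a and Kif23 and the RhoA activator gene Ect2 had log2 fold changes of -0.17, -0.20 and -0.10. That of Ect2 was 0.015 without KO replicate 3 and 0.093 without WT replicate 2.

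The wider mitotic gene set stood on the same side of 0, with a median nearer to it. Of 62 other mitosis genes 0 passed in edgeR, 53 had a negative log2 fold change (51.5% of all genes) and the median was -0.19. At an unadjusted p under 0.05, 10 were lower and 1 higher, against 8.99% of all genes lower and 8.57% higher. DESeq2 and edgeR's exact test called 1 of the 62 lower each, in fits that called 272 of 18230 and 405 of 18237 genes lower. The smallest p values belonged to Racgap1, the partner of Kif23 in the centralspindlin complex (23.0 ± 0.804 CPM in KO and 28.9 ± 2.92 CPM in WT, edgeR adjusted p = 0.0920), Zwint, a kinetochore linker also expressed in neurons (463 ± 10.6 CPM in KO and 540 ± 35.6 CPM in WT, edgeR adjusted p = 0.115), and Cdca8, which encodes borealin of the passenger complex (6.95 ± 0.312 CPM in KO and 9.94 ± 2.36 CPM in WT, edgeR adjusted p = 0.160). Without WT replicate 1, 4 of the 62 were called lower, in a fit that called 5.24% of all genes lower. Of 21 regulators of G2/M transcription 0 passed in edgeR, DESeq2, the exact test and limma-voom, also 0 at an unadjusted edgeR p under 0.05, with a median of -0.08. Foxm1, the activator of late cell cycle genes, was at 9.82, 9.80 and 7.90 CPM in KO and 9.36, 15.6 and 10.9 CPM in WT, with WT replicate 2 again highest and KO replicate 3 lowest.

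S phase genes had a median nearer to 0 than the mitotic genes. Of 33 S phase and DNA replication genes 0 passed in edgeR, DESeq2, the exact test and limma-voom, 30 were negative and the median was -0.13. At an unadjusted p under 0.05, 4 of the 33 were lower, against 8.99% of all genes. Their mean log2(CPM + 1) was 3.46, 3.45 and 3.31 in KO and 3.41, 3.64 and 3.48 in WT, so KO replicates 1 and 2 lay inside the WT range and KO replicate 3 below it. The score of the 32 mitotic genes minus that of the S phase genes was -0.11, -0.21 and -0.31 in the KO libraries and -0.07, -0.016 and -0.10 in the WT libraries, in replicate order. Every KO value of this gap was below every WT value, narrowly so for KO replicate 1 and WT replicate 3. Among single genes the same held for 12.2% of all genes tested, but that share is not a background for a gap between averaged list scores. The gap was not a planned result, and no test was made of it. Of 14 genes of G1 progression and cell cycle exit (cyclins D, their kinases, CDK inhibitors, Rb1, Btg1 and Btg2) 0 passed in edgeR and the median was -0.12. At an unadjusted p under 0.05, where 8.99% of all genes were lower, 3 of the 14 were lower. These were Btg1 (218 ± 5.07 CPM in KO and 255 ± 15.8 CPM in WT, edgeR adjusted p = 0.0975) and Cdkn1a (52.4 ± 5.58 CPM in KO and 62.4 ± 2.55 CPM in WT), both of which restrain division, and Ccnd1 (37.0 ± 1.75 CPM in KO and 41.4 ± 2.05 CPM in WT), the cyclin D1 gene that granule cell precursors use. DESeq2 and the exact test called 1 gene of this list lower each, in fits that called 272 of 18230 and 405 of 18237 genes lower.

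**Figure D5:**
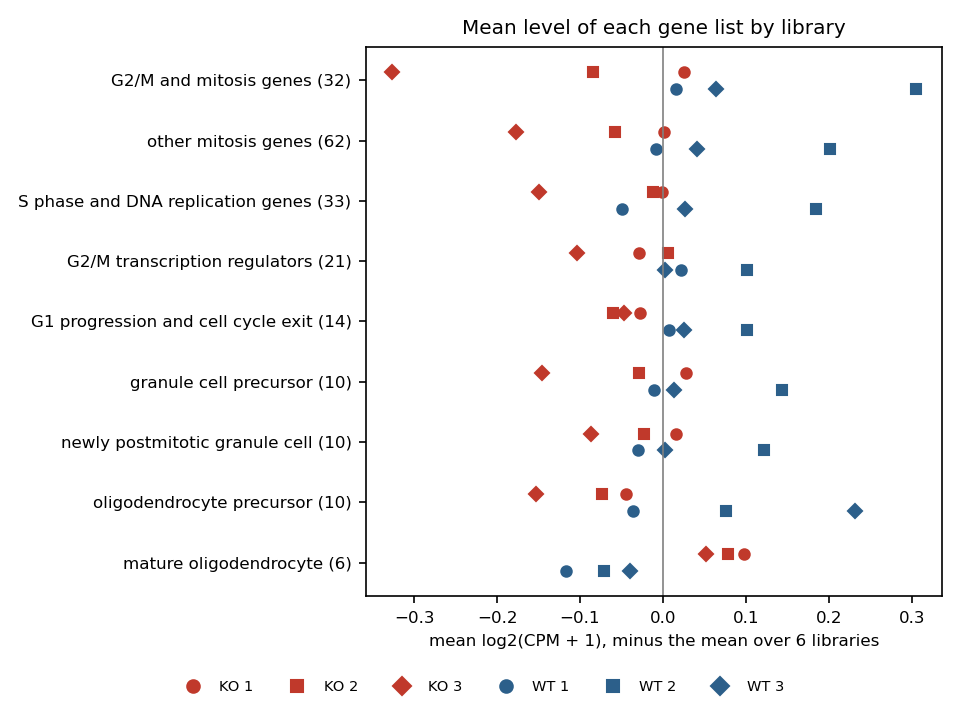
Mean log2(CPM + 1) of each gene list in each library, minus that list's mean over the 6 libraries (horizontal axis), with KO in red above WT in blue for each list and the number of genes in brackets. For the G2/M and mitosis genes KO 3 is lowest and WT 2 highest with KO 1 next to WT 1, while the mature oligodendrocyte markers have KO wholly to the right of WT.

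Markers of the dividing cell types were read beside the mitotic genes. Among 10 granule cell precursor markers 6 were negative and 4 positive, 0 passed in edgeR and the median was -0.06. Ccnd1, lower at an unadjusted edgeR p under 0.05, is on this list and on that of G1 progression, and is counted in both. At an unadjusted p under 0.05, where 8.99% of all genes were lower and 8.57% higher, 3 of these markers were lower and 1 higher. Their mean log2(CPM + 1) was 4.98, 4.93 and 4.81 in KO and 4.94, 5.10 and 4.97 in WT, with KO replicate 3 lowest and WT replicate 2 highest. Markers of newly postmitotic granule cells, which no longer divide, had the same lowest and highest library (7.72, 7.69 and 7.62 in KO and 7.68, 7.83 and 7.71 in WT). The precursor markers summed to 503 to 531 CPM in KO and 503 to 549.9 CPM in WT, and 0 of the 10 were at 0. Atoh1, the transcription factor gene that defines these precursors, was at 1.61, 1.85 and 0.844 CPM in KO and 2.24, 3.64 and 2.58 CPM in WT, on 17 to 62 counts. Its groups did not overlap, and the log2 fold change was -0.94 (SE 0.30, edgeR adjusted p = 0.144). Sfrp1 was at 36.6 ± 5.84 CPM in KO and 51.5 ± 7.59 CPM in WT (edgeR adjusted p = 0.0862), and Gli1, the hedgehog target, at 24.4 ± 1.01 CPM in KO and 19.6 ± 2.76 CPM in WT (edgeR adjusted p = 0.158). Among 10 oligodendrocyte precursor markers 9 were negative, 0 passed in edgeR and the median was -0.20. At an unadjusted p under 0.05, where 8.99% of all genes were lower, 4 of these markers were lower. Their mean log2(CPM + 1) was 5.54, 5.51 and 5.43 in KO and 5.55, 5.66 and 5.82 in WT, with WT replicate 3 highest there. Their summed level was 724 to 757 CPM in KO and 761 to 917 CPM in WT. Pdgfra was at 36.4 ± 1.57 CPM in KO and 44.5 ± 7.12 CPM in WT. The part of either cell type in the values of the 32 genes was not tested.

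Markers of further cell types were checked in the same way. Of 5 interneuron progenitor markers 3 were tested, with 0 passing in edgeR and 0 at an unadjusted p under 0.05, and Ptf1a had 0 counts in all 6 libraries. Markers of newly postmitotic granule cells (10 genes, median -0.06, 2 lower at an unadjusted p under 0.05), Bergmann glia and astrocytes (7, median 0.07, 1 lower), microglia (7, median -0.06, 0) and endothelial cells (6, median -0.02, 0) held 0 edgeR calls, as did meningeal fibroblast markers (6, median 0.17, 2 higher at an unadjusted p under 0.05). Of all genes 8.99% were lower and 8.57% higher at that p. Choroid plexus markers were called lower in 5 of 6 (median -2.59), with summed levels of 7.57 to 445 CPM in KO and 1129.8 to 2060.3 CPM in WT. Purkinje cell markers were called higher in 2 of 6 (median 0.23). Of all genes 0.872% were called lower and 0.784% higher at that adjusted threshold of 0.05. Of 8 mature granule cell markers 1 (Calb2) and of 5 erythroid genes 1 (Hba-a1) were called lower. KO replicate 1, the highest KO library for mitotic genes, had the lowest summed choroid plexus level of the 6 libraries, and the part of these cell types in the values of the mitotic genes was not tested.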

How the data were processed

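The authors deposited raw read counts by gene in a table for each library. The submitters' processing notes name STAR 2.7.5a and the builds mm10 and GRCm38, and the file names give Ensembl release 102. RNA was DNase-treated and sequenced as paired reads of 150 bases from TruSeq libraries, per the labels' protocols. The processing notes also name edgeR 3.12, of which no output was used here. Of STAR's 3 count columns the one without strand was used, because the first strand column held 49.9% to 50.0% of stranded counts. The 4 lines that name no gene (unmapped 6.52% to 17.2%, multimapping 3.72% to 4.29%, unassigned 6.94% to 9.30% and ambiguous 3.95% to 4.44% of all reads) stayed out. Symbols, positions and exon lengths came from GENCODE M21 (GRCm38), which matched 55227 of 55487 identifiers (99.5%).

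Groups came from the strain labels. Replicate numbers follow accession order and serve only as names. KO was set against WT in R 4.3.3 with edgeR 4.0.16, using filterByExpr (minimum count 10, minimum total 15), TMM scaling and the two-sided quasi-likelihood F test, adjusted by Benjamini-Hochberg over 18237 genes. SEs and 95% intervals were derived from the fold change and F statistic and rest on the spread among 3 libraries a group, moderated over genes (6.36 prior degrees of freedom). DESeq2 1.42.0, limma 3.58.1 (voom), edgeR's exact test, RLE scaling, no filter, each strand column, a GC correction by loess and leaving out each library were alternatives. Scores are means of log2(CPM + 1) and got no test. On simulated counts for KO against WT at these depths, 17976 genes tested, edgeR recovered 58% of 1.5-fold, 90% of 2-fold and 100% of 4-fold changes, with 13 false calls. The simulation gave each gene the spread typical of its level and drew libraries independently, so recovery at the spread of the 32 genes was not tested. Full values are given for genes with an unadjusted p under 0.05, for the gene of highest mean CPM in each role and, of other lists, for up to 3 genes of smallest p where a result turns on them. Genes named from other lists (Ccnd1, Cdkn1a, Cdca8, Gli1 and Pdgfra) share exon bases with genes on the other strand. Their CPM can lack reads over those bases, since ambiguous reads stayed out. The 32 genes and all lists were chosen with earlier results of these data known.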

Additional observations from a re-analysis of the deposited data

How the results depend on the processing

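The median log2 fold change and the score of the 32 genes kept their negative sign under every alternative run for each, 14 of them for the median. The score was also taken with a pseudocount of 0.25, on summed CPM and without TMM. With libraries left out the median ran from -0.38 to -0.18 and the score difference from -0.33 to -0.16. Of the 32 genes, 2 to 13 were lower at an unadjusted p under 0.05 (5.51% to 14.6% of all genes). Those higher at that p ran from 0 to 1 (5.63% to 13.3% of all genes), and those called lower from 0 to 5. Calls among all genes ran from 53 to 962 lower and 28 to 959 higher, among other mitosis genes from 0 to 4 lower, S phase genes from 0 to 3 and G1 genes from 0 to 1. DESeq2 called 272 genes lower and 290 higher in all, with 1 other mitosis gene and 1 G1 gene lower. The exact test called 405 lower and 495 higher, again with 1 and 1. With no filter there were 820 lower and 803 higher, with 7 of the 32 genes called and 17 lower at an unadjusted p under 0.05 (6.8% of all genes), 3 other mitosis genes and 2 G1 genes, among 33485 genes tested; the cause was not tested. The second strand column gave 1 of the 32 higher at an unadjusted p under 0.05 (8.06% of all genes) and turned the sign of Aurka (0.024), Kif2c (0.036) and Plk1 (0.092), the first turned Mad2l1 (0.028), and leaving out libraries turned Mad2l1 (-0.11 to 0.039) and Ect2 (-0.20 to 0.093). Of 448 single-gene values 439 kept their direction. No paired analysis was possible because the labels give the groups no shared replicate numbers. Of simulated 1.5-fold changes 58% were recovered, smaller ones were not simulated, and recovery by count level or at the spread of the 32 genes was not tested. The gene of the 32 with the fewest counts, Ndc80, had 46 to 89 per library.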
